A study of Rattus norvegicus with 9 samples.

Results

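The let-7 family 5p arms, together with miR-98-5p, are the mature miRNAs of rat that share the let-7 seed, and they were taken as every listed miRNA whose name begins with let-7 and ends with 5p, plus miR-98-5p. This gave 9 of the 276 miRNAs measured in serum, namely the a, b, c, d, e, f, g and i forms of let-7 (listed as rno-let-7b-5p, rno-let-7c-5p, rno-let-7g-5p and so on) and rno-miR-98-5p. All 9 had reads in at least 3 of the 9 libraries and so entered the test. The sham group held 3 wild-type male Sprague-Dawley (SD) rats with a sham operation. The PAB group held 6 wild-type male SD rats with pulmonary artery banding (PAB), a fixed plastic ring that narrows the pulmonary artery and loads the right ventricle (RV) with pressure. The rats were 4 weeks old at surgery, and serum was taken 4 weeks later, with 1 small RNA library per rat. The comparison asked which circulating miRNAs differ when the RV remodels.

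The let-7 miRNAs are among the oldest known miRNAs and were found through their role in developmental timing in the worm. In mammals LIN28 blocks the processing of let-7 precursors in stem cells, and the mature forms accumulate as cells differentiate. They repress growth genes such as HMGA2, MYC and RAS through sites that pair with the seed, the bases near the 5′ end that decide which mRNAs a miRNA binds. Several members are plentiful in blood cells and in adult heart. In serum, a change in the number of cells that release a miRNA and a change in the amount released per cell cannot be told apart.

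The sequences of the 9 members, from the RefSeq annotation of the rat build GRCr8, are shown because the seed is common to all and the rest is nearly so, which bears on how their reads are told apart. Capitals mark the seed, bases 2 to 8 from the 5′ end.
rno-let-7a-5p: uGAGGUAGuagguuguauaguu
rno-let-7b-5p: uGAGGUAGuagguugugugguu
rno-let-7c-5p: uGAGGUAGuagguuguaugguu
rno-let-7d-5p: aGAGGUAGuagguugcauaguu
rno-let-7e-5p: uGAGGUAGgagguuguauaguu
rno-let-7f-5p: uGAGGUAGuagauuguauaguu
rno-let-7g-5p: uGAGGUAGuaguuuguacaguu
rno-let-7i-5p: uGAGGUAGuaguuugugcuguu
rno-miR-98-5p: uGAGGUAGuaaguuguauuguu
The 9 sequences are each 22 bases long and differ by 1 to 6 bases between members. Of the 36 pairs, 4 differ by a single base. With positions counted from the 5′ end and the base of let-7a-5p given first, let-7c-5p differs from let-7a-5p by A19G, let-7e-5p by U9G and let-7f-5p by G12A. From let-7b-5p to let-7c-5p the single difference is G17A. A read with 1 error at such a position may therefore fit a pair of members, and the counting rule for such reads is not given in the sources used here. Of the 276 listed miRNAs, 196 had a mature sequence in RefSeq, and the seed GAGGUAG was found at bases 2 to 8 in these 9 and in no other of the 196.

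The 9 mature forms come from 12 genes in GRCr8. let-7b-5p lies at chr7:118684044-118684065 on the + strand, 408 bases from one of the let-7c genes at chr7:118683636-118683657. The other let-7c gene is at chr11:29688127-29688148 (+), within a lncRNA gene. let-7g-5p lies at chr8:115701026-115701047 (+) within the bounds of the protein-coding genes Wdr82 and Rpl29. One let-7a gene, one let-7f gene and the let-7d gene stand within 2128 bases of each other on chromosome 17 (chr17:16320145-16320166, chr17:16320508-16320529 and chr17:16322273-16322294, all +) within a lncRNA gene. The other let-7f gene, at chrX:24460052-24460073 (+), stands 611 bases from the miR-98 gene at chrX:24460663-24460684 (+), both within Huwe1. The other let-7a gene lies at chr8:50805219-50805240 (+), 6912 bases from the miR-100 gene. let-7e-5p lies at chr1:67350243-67350264 (+), within Spaca6, between the genes of miR-99b and miR-125a. let-7i-5p lies at chr7:60527935-60527956 on the − strand, with no other member near it. Exon and intron bounds were not used here, so these overlaps are with whole genes.

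The libraries held 19477 to 65313 miRNA reads, of which 20.1% over all 9 libraries (88143 of 437438 reads) came from the let-7 family. Counts were scaled with TMM, which equalises the bulk of the miRNAs between libraries, and tested with edgeR's quasi-likelihood test over 162 miRNAs. Calls needed an adjusted p of at most 0.05 together with a log2FC (PAB against sham) of at least 1 in size. The deposited RPM, reads per 1000000 reads of a library total (12630000 to 19250000) that also counts reads of other kinds, gives a scale that does not depend on the other miRNAs. All miRNAs together averaged 4128 ± 950 RPM over the sham libraries (SD, n = 3) against 2598 ± 1135 over the PAB libraries (SD, n = 6). Over all tested miRNAs the log2FC had a median of −0.15 after TMM scaling, but −1.54 when the totals behind the RPM were used, and fold changes are read below against that median. Red blood cell markers were present in every library, and so were platelet and white blood cell markers.

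As a group, the let-7 family made up a larger part of the serum miRNA reads in most rats with PAB. It took 8.75%, 21.2% and 2.75% of the miRNA reads in sham libraries 1 to 3, and 10.6% to 45.2% (median 27.2%) in the PAB libraries, and counting error was small beside these differences (Wilson 95% interval in PAB library 1, 17.2% to 18.3%). Of the 6 PAB libraries, 4 lay above the highest sham library, while PAB libraries 1 and 2 lay within the sham range. The share averaged 10.9% ± 9.40 over the sham libraries (SD, n = 3) against 26.5% ± 12.0 over the PAB libraries (SD, n = 6). On the RPM scale the difference of the family and that of the other miRNAs had opposite signs. The 9 members summed to 456 ± 367 RPM over the sham libraries (SD, n = 3) against 680 ± 427 over the PAB libraries (SD, n = 6), and 1 PAB library exceeded the highest sham value of 825 RPM. The other miRNAs summed to 3671 ± 912 RPM (SD, n = 3) against 1918 ± 1026 (SD, n = 6), with 0 PAB libraries above the highest sham library. No p is given for these sums, since the members were chosen with earlier results known. Sham library 3 had the lowest summed RPM of the family, 91.2, at a library total of 16960000 reads.

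**Figure D1:**
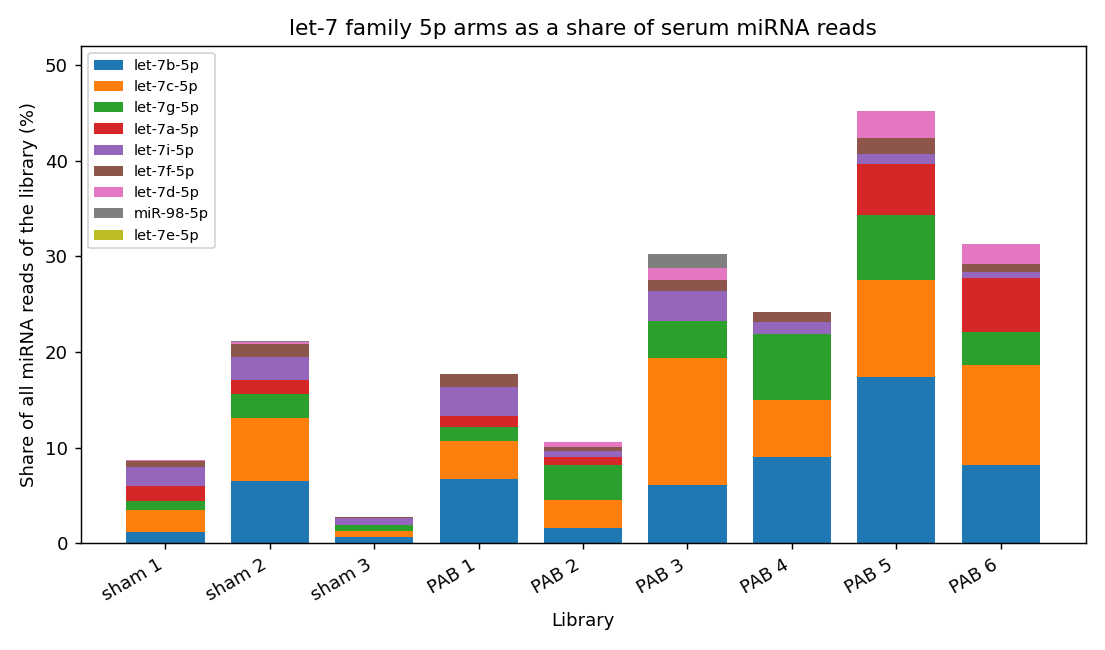
The bars give each let-7 family member as a share (%) of all miRNA reads of a library, stacked, for 3 sham and 6 PAB libraries. The family reaches 45.2% in PAB library 5 and 2.75% in sham library 3, and PAB libraries 1 and 2 (17.7% and 10.6%) lie below sham library 2 (21.2%).

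let-7b-5p, let-7c-5p and let-7g-5p together held 50.8% to 90.4% of the family's reads in each library. They were not the 3 largest members everywhere. In sham library 1 let-7i-5p (22.8%) and let-7a-5p (17.1%) exceeded let-7b-5p (13.9%) and let-7g-5p (11.3%), and in sham library 3 let-7i-5p led with 27.8%. let-7b-5p, the member with the highest mean share of miRNA reads (6.38% over the 9 libraries), was read 796, 4265 and 368 times in sham libraries 1 to 3 and 1065 to 10542 times (median 2018) in the PAB libraries. On the RPM scale this was 63.0, 255 and 21.7 in the sham libraries and 67.8 to 550 (median 147) in the PAB libraries. Only PAB libraries 4 and 5 exceeded the highest sham value, so that the groups overlap. let-7b-5p had a log2FC of 2.58 (SE 1.04, edgeR's adjusted p = 0.188), and the difference of log2(RPM + 0.1) was 1.15 (two-sided exact permutation over the 84 arrangements of the group labels, p = 0.286, adjusted p = 0.468 over all tested miRNAs). This difference was 0.30 without sham library 3 and 2.08 without sham library 2 (exact permutation p = 0.75 and 0.107). Per miRNA read in place of RPM it was 1.93 (exact permutation p = 0.0476, adjusted p = 0.241).

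let-7c-5p, which differs from let-7b-5p by 1 base, was read 1461, 4277 and 361 times in sham libraries 1 to 3 and 775 to 6141 (median 3066.5) in the PAB libraries. In RPM it was 116, 255 and 21.3 in the sham libraries and 40.3 to 321 (median 212) in the PAB libraries. One PAB library lay above the highest sham library on this scale. After TMM scaling the groups of let-7c-5p no longer overlapped, with 10598 to 30676 CPM (TMM-scaled reads per 1000000) in the sham group and 41001 to 138789 CPM in the PAB group. The same held for let-7g-5p, with 5425 to 11576 CPM in the sham group and 19078 to 92368 CPM in the PAB group. let-7g-5p, whose hairpin precursor is a classic target of LIN28, was read 648, 1614 and 354 times in sham libraries 1 to 3 and 295 to 4087 (median 1720) in the PAB libraries. In RPM this was 51.3, 96.4 and 20.9 in the sham libraries and 15.3 to 223 in the PAB libraries, of which 3 lay above and 1 below the sham range. Among all tested miRNAs, 1.23% had PAB libraries wholly above the sham libraries after TMM scaling, and these were let-7c-5p and let-7g-5p themselves. On the RPM scale and per miRNA read, 0% of the tested miRNAs did so, and let-7c-5p and let-7g-5p overlapped. In the other direction, 4.94% of the tested miRNAs had PAB libraries wholly below the sham libraries after TMM scaling, 4.94% per miRNA read and 9.88% in RPM, and 0 of the 9 members were among them on any of these scales. The log2FC was 2.29 (SE 1.01, edgeR's adjusted p = 0.226) for let-7c-5p. It was 2.49 (SE 1.25, edgeR's adjusted p = 0.338) for let-7g-5p. Without sham library 3 the difference of log2(RPM + 0.1) turned from 0.89 to −0.11 for let-7c-5p.

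let-7a-5p, let-7f-5p and let-7i-5p were the members of middle abundance. let-7i-5p, known in human bile duct cells as a repressor of TLR4, lay lower in RPM in most rats with PAB, with 103, 93.7 and 25.4 RPM in the sham libraries and 15.6 to 53.6 RPM (median 32.4) in the PAB libraries. All 6 PAB libraries lay below sham libraries 1 and 2, and 2 of them lay below sham library 3. The difference of log2(RPM + 0.1) was −1.02 (two-sided exact permutation, p = 0.119, adjusted p = 0.261), and −1.67 without sham library 3 (exact permutation p = 0.0357, the smallest that those 8 libraries allow, adjusted p = 0.0864). It was −0.66 without sham library 1 and −0.73 without sham library 2 (exact permutation p = 0.321 for both). After TMM scaling let-7i-5p stood the other way, with a log2FC of 0.69 (SE 1.53, edgeR's adjusted p = 0.913), and its 3 sham libraries were close together at 10892 to 12624 CPM. With the totals behind the RPM its log2FC was −1.16, which is 0.37 above the median of −1.54 over all tested miRNAs. In the exact permutation test with all 9 libraries, 24.7% of the tested miRNAs had p of at most 0.05, and let-7i-5p was not among them. let-7f-5p, one of the let-7 miRNAs of endothelial cells, was read 448, 858 and 20 times in sham libraries 1 to 3 and 238 to 995 times (median 290.5) in the PAB libraries. Sham libraries 1 and 2, at 35.5 and 51.2 RPM, lay in the upper part of the PAB libraries (median 19.4 RPM, highest 51.9 RPM), and sham library 3, at 1.18 RPM, lay below all of them. The log2FC of let-7f-5p was 1.86 (SE 1.92, edgeR's adjusted p = 0.693). Without sham library 3 its difference of log2(RPM + 0.1) turned from 0.82 to −0.87.

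let-7a-5p, whose sequence is that of the let-7 of the worm, was either well covered or almost missing. Sham libraries 1 to 3 held 979, 982 and 1 of its reads, against 224, 549, 0, 0, 3221 and 1697 in PAB libraries 1 to 6. The 0 reads in PAB libraries 3 and 4 stood beside 3533 and 2993 reads of let-7c-5p, which differs from it by A19G. By counting error alone, these zeros allow a let-7a-5p share of up to 0.0374% and 0.0249% of the family's reads. In the 6 libraries with more than 1 read it was 6.49% to 18.2%. In those 6 libraries let-7c-5p had 1.49 to 4.36 reads per read of let-7a-5p, against 361 in sham library 3. miR-3596a, which is listed apart from the family, has a gene that overlaps the let-7a gene on chromosome 8. After TMM scaling it had 9395 CPM in sham library 3 and 39132 CPM in PAB library 3. In PAB library 4, where let-7a-5p also had 0 reads, it had 276 CPM, and in the other libraries 0 to 71.7 CPM. Whether reads of let-7a-5p were counted under miR-3596a was not tested. The log2FC of let-7a-5p was 2.29 (SE 2.199, edgeR's adjusted p = 0.641), and its difference of log2(RPM + 0.1) was −0.42 (two-sided exact permutation, p = 0.857, adjusted p = 0.938).

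let-7d-5p, miR-98-5p and let-7e-5p were the rare members, and their levels turned on a few libraries. let-7d-5p, which alone begins with A and is known in lung as a repressor of HMGA2, was read 51, 151 and 9 times in the sham libraries. In PAB libraries 1 to 6 it had 3, 338, 327, 2, 1714 and 627 reads, so that 4 rats with PAB lay above and 2 below all 3 sham rats in RPM. Its log2FC of 4.44 was the highest of the family with TMM (SE 2.51, edgeR's adjusted p = 0.351). In RPM it averaged 4.53 ± 4.27 over the sham libraries (SD, n = 3) against 30.2 ± 34.1 over the PAB libraries (SD, n = 6), and the two-sided exact permutation test used the log2 values (p = 0.583, adjusted p = 0.756).

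miR-98-5p, the X-linked member and in mouse heart a brake on hypertrophy, was read 14, 55 and 3 times in the sham libraries. PAB library 3 held 375 of its 455 reads, and the other PAB libraries held 0 to 3. The log2FC of 3.60 (SE 3.06, edgeR's adjusted p = 0.587) rested on that library, and without it the log2FC was −2.22 (edgeR's adjusted p = 0.314). let-7e-5p, the rarest member, was read 20, 39 and 1 times in sham libraries 1 to 3 and 1, 1, 0, 0, 0 and 5 times in PAB libraries 1 to 6. It was the only member with a log2FC below 0, −2.07 (SE 1.20, edgeR's adjusted p = 0.356). The difference of log2(RPM + 0.1) was −2.51 (two-sided exact permutation, p = 0.0357, adjusted p = 0.156), in a test where 24.7% of the tested miRNAs and 1 of the 9 members had p of at most 0.05, and 88.1% of its 67 reads came from sham libraries 1 and 2.

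**Figure D2:**
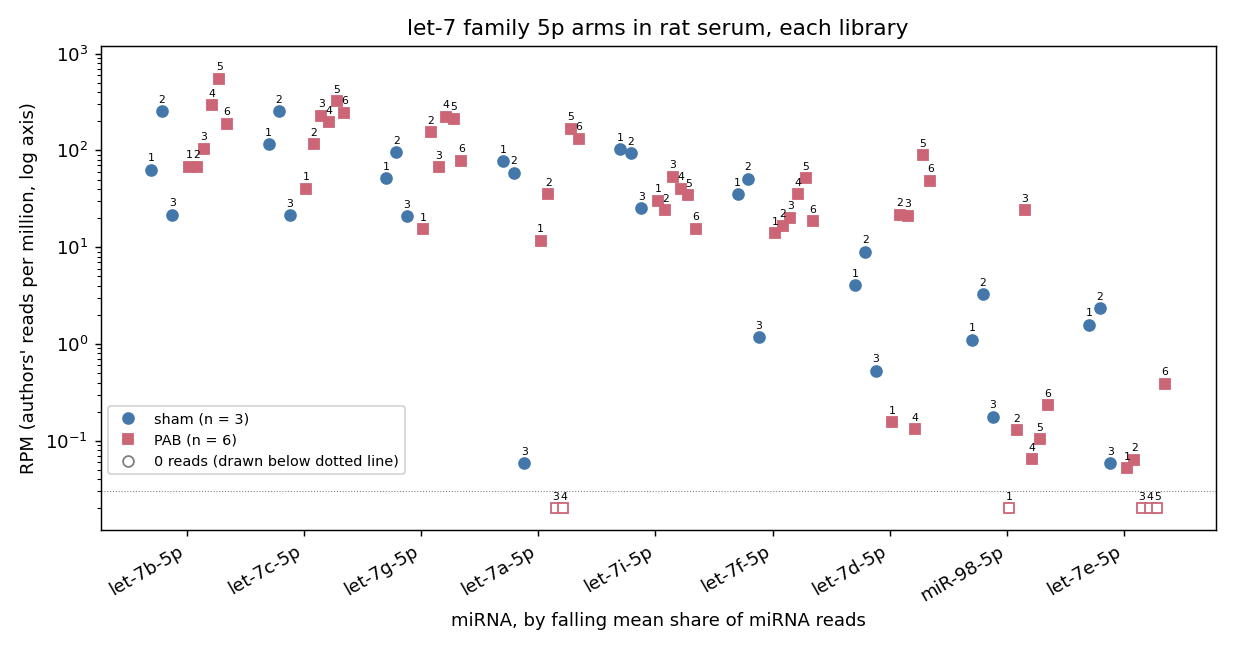
Each point is the RPM (log axis) of 1 member in 1 library, numbered as in the text, with circles for the 3 sham and squares for the 6 PAB libraries. Sham library 3 is the lowest sham point of every member, let-7a-5p has 0 reads in PAB libraries 3 and 4, and miR-98-5p has 24.2 RPM in PAB library 3 alone.

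The composition of the family differed between rats. By mean share of the family's reads over the 9 libraries, let-7c-5p (28.2%) and let-7b-5p (27.1%) came first and did not differ beyond their spread, followed by let-7g-5p (17.4%), let-7i-5p (11.6%), let-7a-5p (7.64%), let-7f-5p (4.61%), let-7d-5p (2.74%), miR-98-5p (0.621%) and let-7e-5p (0.0882%). Neighbours in this order overlapped in their ranges. The order weights the 6 PAB libraries most, and let-7i-5p averaged 20.6% ± 8.42 over the sham libraries (SD, n = 3) against 15.3% ± 6.57 for let-7g-5p, whereas over the PAB libraries (n = 6) it averaged 7.05% ± 5.61 against 18.5% ± 10.8. let-7g-5p ranged from 8.54% to 35.3%, let-7i-5p from 2.14% to 27.8% and let-7a-5p from 0% to 18.2%. The leading member was let-7c-5p in sham libraries 1 and 2 and PAB libraries 3 and 6, let-7b-5p in PAB libraries 1, 4 and 5, let-7g-5p in PAB library 2 and let-7i-5p in sham library 3. let-7i-5p took 22.8%, 11.4% and 27.8% of the family's reads in the sham libraries and 2.14% to 16.8% (median 5.30%) in the PAB libraries. let-7e-5p took 0.0646% to 0.35% of the family's reads in the sham libraries, where the low end is 1 read, and 0% to 0.0535% in the PAB libraries.

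Ratios between members do not depend on the scaling of the libraries. Among the 6 members with reads in every library, 0 of the 15 pairs had ratios that were separate between the groups, against 4.15% of the 820 pairs of all 41 miRNAs with reads in every library. The pairs that came closest involved let-7i-5p. The ratio of let-7g-5p to let-7i-5p was 0.498 to 1.03 in the sham libraries and 0.509 to 6.42 (median 5.29) in the PAB libraries, and 5 of 6 PAB libraries were above all sham libraries. The ratio of let-7c-5p to let-7i-5p was 0.840 to 2.73 in the sham libraries and 1.34 to 15.7 (median 4.87) in the PAB libraries, again with 5 of 6 above. PAB library 1 was the exception in both. The ratio of let-7b-5p to let-7c-5p varied least, between 0.455 and 1.72, with an SD of 0.73 on the log2 scale over the 9 libraries. The median of this SD was 1.46 over the 15 pairs and 3.49 over the 820 pairs.

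With TMM, 8 of the 9 members had a log2FC above 0, against 46.9% of all tested miRNAs, and the median log2FC was 2.29, against −0.15 over all tested. edgeR's quasi-likelihood test called 0 members, as it called 0% of the tested miRNAs higher and 1.23% lower. At an unadjusted p under 0.05 edgeR had 2 members, let-7b-5p and let-7c-5p, both higher, among the 4.32% of tested miRNAs that were higher at this level. DESeq2 called let-7b-5p (log2FC 3.08, adjusted p = 0.00661), let-7c-5p (2.73, adjusted p = 0.00502), let-7d-5p (4.42, adjusted p = 0.0393) and let-7g-5p (3.08, adjusted p = 0.00403) higher, and it called 5.56% of the tested miRNAs higher and 2.47% lower. DESeq2 gave no adjusted p for miR-98-5p, and limma-voom called 0 members. The 6 members with reads in every library had a median log2FC of 2.39, all above 0, and the 35 other miRNAs with reads in every library had a median of 0.17, with 21 above 0.

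**Figure D3:**
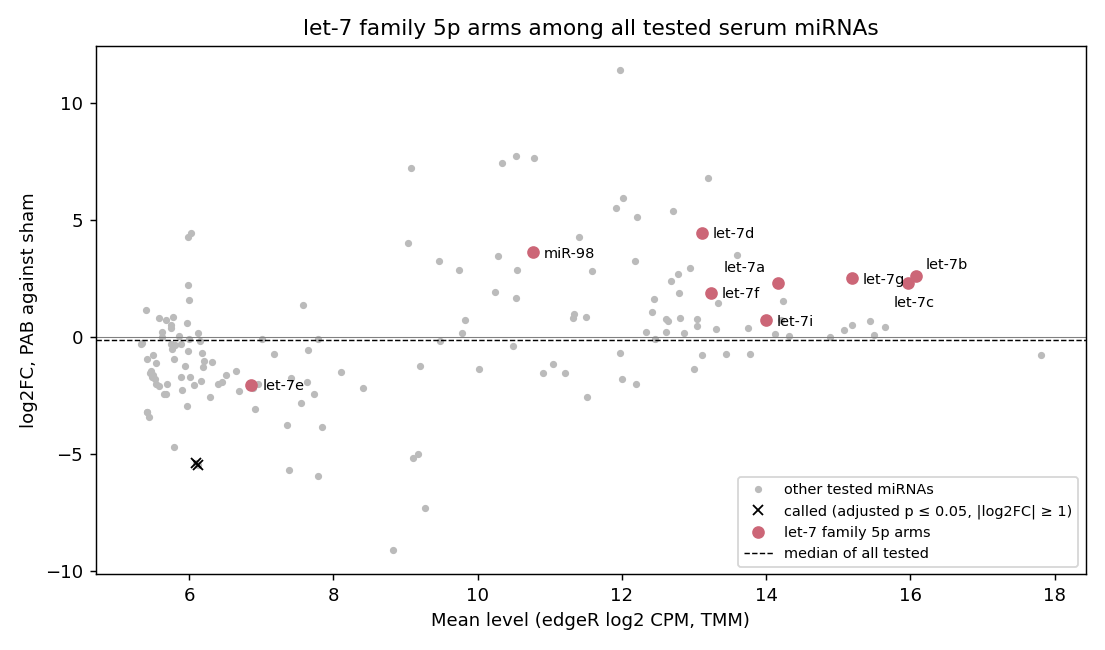
Each point is 1 of 162 tested miRNAs, with its mean level (log2 CPM after TMM) on the horizontal axis and its log2FC on the vertical axis. The 9 family members (filled circles) lie above 0 except let-7e-5p (−2.07), although let-7f-5p (−0.17) and let-7i-5p (−1.16) fall below 0 with the totals behind the RPM, and the 2 miRNAs called by edgeR (crosses) are not members.

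The scaling set the size of these fold changes and, for some members, the direction. With the totals behind the RPM the log2FC was 0.91 for let-7b-5p, 0.55 for let-7c-5p, 1.15 for let-7g-5p and 0.35 for let-7a-5p, and it was −0.17 for let-7f-5p and −1.16 for let-7i-5p. With miRNA library totals let-7i-5p had −0.09. Relative to the median of all tested miRNAs, the same 8 members were above it in each of these scalings, and let-7b-5p stood 2.73 above it with TMM and 2.44 above it with the totals behind the RPM. A change of scaling shifts the fold changes of all miRNAs by similar amounts, so places relative to the median change little by construction. Among the 8, miR-98-5p was at −2.22 without PAB library 3 (TMM), under the median of −0.46 in that fit. Factors computed without the members left the values near those of TMM, with a log2FC of 2.44 for let-7b-5p and 2.27 for let-7c-5p.

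**Figure D4:**
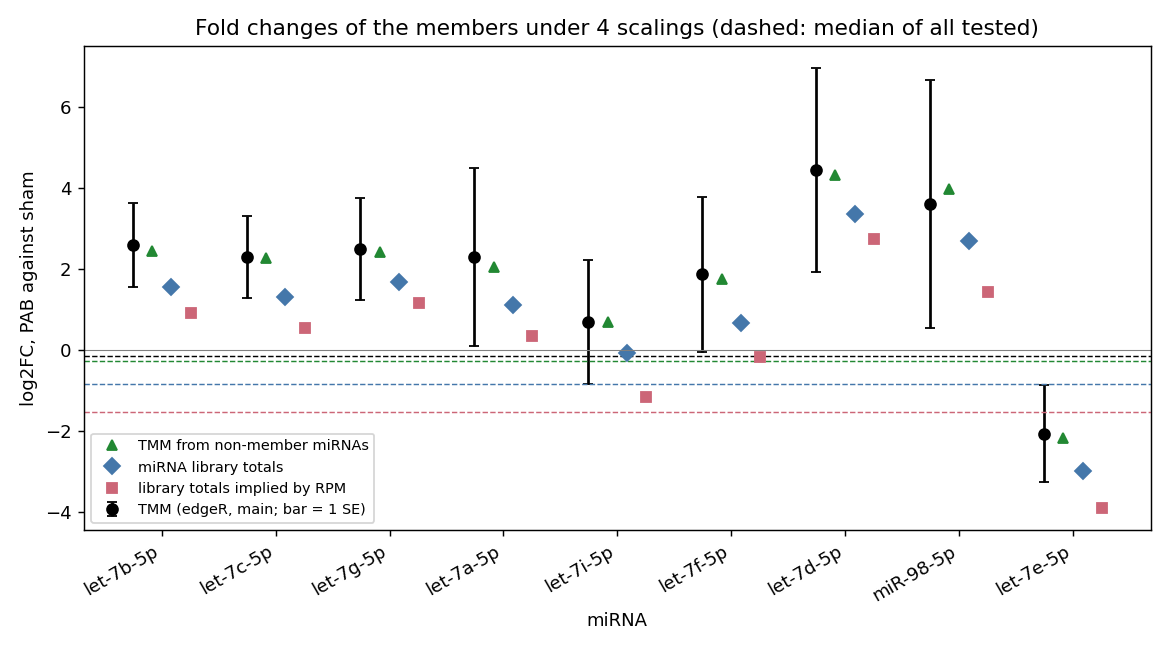
For each member the symbols give log2FC under 4 scalings, the bar is 1 SE of edgeR's main fit, and dashed lines give the median of all tested miRNAs under the scaling of the same colour. Moving from TMM to the totals behind the RPM lowers the median from −0.15 to −1.54 and takes let-7i-5p from 0.69 to −1.16 and let-7b-5p from 2.58 to 0.91.

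Members whose genes stand together were missing from the same libraries in some cases and not in others. On chromosome 17, sham library 3 had 1 read of let-7a-5p, 20 of let-7f-5p and 9 of let-7d-5p, and PAB library 4 had 0, 537 and 2. In contrast, PAB library 1 had 224 reads of let-7a-5p and 269 of let-7f-5p but 3 of let-7d-5p, and PAB library 3 had 312 of let-7f-5p and 327 of let-7d-5p but 0 of let-7a-5p. let-7a-5p and let-7f-5p also have a gene each elsewhere. On chromosome X, let-7f-5p had 238 reads or more in each PAB library while miR-98-5p had at most 3 outside PAB library 3. let-7d-3p, the other arm of let-7d, had 1 read in PAB library 1 and 5097 in PAB library 4, where let-7d-5p had 3 and 2.

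The miR-99/100 and miR-125 miRNAs, known for roles in cell growth and differentiation, include genes near let-7c, let-7e and let-7a, and 11 of their arms made up a list of cluster partners. Genes of miR-99a, miR-99b, miR-100 and miR-125a lie within 10000 bases of a member, and those of miR-125b lie farther off. Of these, 9 were in the table and 6 were tested, all 6 with a log2FC below 0 with TMM (1 of them, at −0.09, had 0.23 with DESeq2), a median of −2.19 and 0 called by edgeR. The most extreme, miR-100-5p, had a log2FC of −5.17 (SE 1.89, edgeR's adjusted p = 0.155), with 157 and 415 of its 581 reads in sham libraries 1 and 2, and DESeq2 called it lower. miR-125b-5p had −2.45, miR-99b-3p −2.46 and miR-125a-5p −1.93 (edgeR's adjusted p = 0.351, 0.324 and 0.422). miR-99b-5p, with 2392 reads against 14 of miR-99b-3p, had a log2FC of −0.80 (SE 2.07, edgeR's adjusted p = 0.931). let-7e-5p, the member encoded between miR-99b and miR-125a, was also below 0 with TMM. let-7a-5p and let-7c-5p, which likewise have genes near cluster partners, were above 0, at 2.29 each. Of the 7 other arms of the precursors in the table, 2 were tested and 0 were called. let-7d-3p had a log2FC of 0.64 (edgeR's adjusted p = 0.894) and let-7e-3p one of 7.72 (adjusted p = 0.345), with 610 of its 614 reads in PAB library 4.

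Over the 9 libraries, the miRNAs outside the family with the profile most like that of the summed family were miR-26a-5p, a miRNA predicted by the authors and miR-23a-3p. The root mean square difference of their centred log2 levels per miRNA read from that of the family was 1.34, 1.66 and 1.68. For the members themselves it was 0.305 for let-7c-5p, 0.522 for let-7b-5p, 0.661 for let-7g-5p, 0.766 for let-7f-5p, 1.26 for let-7i-5p and 2.72 for let-7d-5p, part of which follows from their place in the sum. Blood cell miRNAs were read in the same libraries. The 3 red blood cell markers in the table of 5 listed (miR-451-5p, miR-486 and miR-16-5p) took 0.132% to 1.53% of the miRNA reads in the sham libraries and 1.86% to 10.6% in the PAB libraries, so that these shares did not overlap. In RPM the same markers summed to 6.81 to 50.6 in the sham libraries and 33.3 to 209 in the PAB libraries, which do overlap. Each of the 3 alone overlapped between the groups after TMM scaling, and edgeR called 0 of them. miR-451-5p had 67.8 CPM in PAB library 5 against 25013 CPM in sham library 3. In PAB library 2 miR-486 had 22.5 CPM and miR-16-5p 44.9 CPM, against 151 and 4174 CPM in sham library 2. The highest red blood cell share, 10.6%, was that of PAB library 1, where the family took 17.7%. The next, 8.98%, was that of PAB library 6, where the family took 31.3%. The 4 platelet markers were miR-223-3p, miR-126a-3p, miR-191a-5p and miR-24-3p. Summed, they took 25.5% to 46.5% in the sham libraries and 11.3% to 32.0% in the PAB libraries. Most of this sum was miR-191a-5p and miR-24-3p, at means of 1146 and 352 RPM in sham (n = 3) and 444 and 122 RPM in PAB (n = 6). miR-126a-3p averaged 28.6 and 5.69 RPM. miR-223-3p had 15436 CPM in PAB library 5 and 0 to 64.7 CPM in the others. In the same order, 2 of 5 white blood cell markers took 0.562% to 7.44% and 0.882% to 9.11%, and miR-122-5p of liver 0.770% to 4.90% and 0% to 5.55%. Of the 5 striated muscle markers, 4 were in the table, at 0.171% to 2.44% and 0.119% to 3.72%. As a measure of haemolysis, miR-451-5p over miR-23a-3p on the log2 scale averaged −5.34 ± 3.37 over the sham libraries (SD, n = 3) and −2.46 ± 2.74 over the PAB libraries (SD, n = 6). It was −8.14, −6.28 and −1.60 in sham libraries 1 to 3. In PAB libraries 1 to 6 it was −0.49, −1.20, −2.11, −1.72, −7.94 and −1.31. PAB library 5, with the largest family share (45.2%), had the lowest value of this ratio in the PAB group, and its red blood cell share was 3.91%. The part of red blood cell or platelet RNA in the let-7 levels was not tested.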

How the data were processed

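The authors extracted RNA from serum, ligated adaptors, amplified the libraries by PCR and filtered the reads. Their methods give an alignment to Rnor_6.0 (Bowtie 2.2.5), a search of miRBase and Rfam, and DESeq2, whereas the processing notes of the submitters list GRCh38.p13 and Bowtie2 2.2.9. The deposited table lists whole read counts for 276 miRNAs, 58 of them predicted, and RPM, which the authors made with a single divisor for each library. No molecular identifiers are named, so intervals and floors (3 counts) cover counting error only.

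Counts were tested in R 4.3.3 with edgeR 4.0.16 (TMM factors, quasi-likelihood test, Benjamini-Hochberg adjustment) over the 162 miRNAs with reads in at least 3 libraries. SEs were taken as log2FC over the root of F. The log2(RPM + 0.1) values were compared by exact permutation, where 0.0119 is the smallest p possible. Alternatives were DESeq2 1.42.0, limma-voom (limma 3.58.1), other scalings, filters and pseudocounts, a table restricted to miRBase, a block for library number, summed members and leaving out each library. The fit was tested on simulated data, but the check it had to pass used higher counts and far less spread between libraries than these data have. edgeR's common dispersion, its measure of that spread, was 3.03 here. The check therefore does not tell how many true changes the fit would find in these libraries. The tables and plots were made in Python 3.11.15 (pandas 2.3.3, numpy 2.4.6, scipy 1.17.1, matplotlib 3.10.9). Every member was named, with up to 4 of the tested cluster partners and other arms of smallest p and the 3 other miRNAs of most similar profile. miR-3596a and miR-99b-5p were added for the place of their genes at those of let-7a and let-7e. Markers were given as summed levels, and those of red blood cells and platelets also singly. The members and lists were chosen with earlier results of these data known. RefSeq sequences are of GRCr8, and no genome was used.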

Additional observations from a re-analysis of the deposited data

Results flagged for a closer look

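In the PAB group, 4 values lay far from the other 5 libraries, by the gap to the nearest library as a part of the group's range. This was among 20 sets of PAB values examined. The cut flags about 1 set in 20 by chance if values are normally distributed, and skewed values, such as those of low counts, can be flagged more often. The 4 flags are not separate, since those of miR-98-5p in RPM and in share come from the same reads. miR-98-5p had 24.2 RPM in PAB library 3, and with it a share of 4.68% of the family's reads, against at most 0.234 RPM in the other PAB libraries. let-7e-5p had 0.39 RPM in PAB library 6, which is 5 reads. let-7f-5p made up 7.79% of the family's reads in PAB library 1. The part of library preparation and of serum content in these values was not tested.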

How the results depend on the processing

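The log2FC of the b, c, d and g forms of let-7 stayed above 0 in all 20 other settings and that of let-7e-5p below 0 in the 19 in which it was tested, since it did not enter with a minimum of 10 reads in 3 libraries. The sign changed for let-7f-5p (−0.17) and let-7i-5p (−1.16) with the totals implied by RPM, for let-7i-5p with miRNA totals (−0.091) and with the minimum of 10 reads (−0.47), and for miR-98-5p with limma-voom (−0.25). With TMM, leaving out each library gave 1.58 to 2.82 for let-7a-5p, 2.07 to 3.46 for let-7b-5p, 2.02 to 2.93 for let-7c-5p, 3.71 to 5.21 for let-7d-5p, −3.24 to −1.38 for let-7e-5p, 1.36 to 2.55 for let-7f-5p, 2.23 to 3.12 for let-7g-5p, 0.36 to 0.97 for let-7i-5p and −2.22 (without PAB library 3) to 4.54 for miR-98-5p. DESeq2 called 4 members, and the other settings 0. The difference of log2(RPM + 0.1) turned to 0.20 per miRNA read and 0.35 per read of the other miRNAs for let-7a-5p, and to 0.049 per read of the other miRNAs for let-7i-5p. Leaving out each library gave −3.33 (without sham library 3) to 1.14 (without sham library 1) for let-7a-5p, −0.11 to 1.68 for let-7c-5p and −0.87 to 1.79 for let-7f-5p, 0.30 to 2.08 for let-7b-5p and 0.38 to 1.48 for let-7g-5p, with the low end without sham library 3 for these, 0.19 (without sham library 3) to 2.27 for let-7d-5p, −1.67 (without sham library 3) to −0.66 for let-7i-5p, −3.74 to −1.77 for let-7e-5p and −2.45 to −0.43 for miR-98-5p. Per miRNA read the difference was 1.93 for let-7b-5p and 1.75 for let-7g-5p (exact permutation p = 0.0476 and 0.0238, adjusted p = 0.241 for both). The family's difference in share was 11.6 to 20.8 percentage points without single libraries. Over all miRNAs, 1 was called higher without a filter and 9 with DESeq2. The number called lower, 2 with edgeR, was 0 with DESeq2 size factors, with the minimum of 10 reads and with limma-voom, 4 with DESeq2, 5 with TMM factors from other miRNAs and with miRBase miRNAs, 6 with miRNA totals, 10 without a filter, 23 with the totals implied by RPM and 0 to 2 without single libraries. The cause was not tested. Library numbers 1 to 3 occur in both groups, but the deviations of same-numbered libraries correlated at −0.15, −0.35 and 0.03 and 0 of 6 libraries matched best with their own number, so they were not taken as pairs. A replicate block on these 6 libraries called 0 miRNAs lower, as did the same libraries without the block, and gave log2FC of −0.48 for let-7a-5p and −1.74 for miR-98-5p. Depth limits miR-98-5p and let-7e-5p most, with at most 3 reads in 6 libraries each.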
